A study of Homo sapiens with 35 samples.

Results

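The response to low oxygen of HCT116 cells carrying a short hairpin RNA against CDK8 was described from 5 of the 35 arrays of the study, chosen by their titles: 2 arrays of shCDK8 cells kept at 1% oxygen for 24 h and 3 arrays of shCDK8 cells in normal growth. HCT116 is an established human colorectal carcinoma line. The study compared lines with a hairpin against CDK8 (shCDK8), against its paralogue CDK19 (shCDK19) or with a non-target hairpin (shControl) in normal growth, hypoxia, 5-fluorouracil and low glucose, with total RNA on whole-transcript gene arrays. Cells grew in McCoy's 5A medium, supplemented with serum, before any treatment. Beside the shCDK8 arrays stand 2 arrays of shControl cells after the same 24 h at 1% oxygen and 3 of shControl cells in normal growth. As other arrays of the knockdown line without hypoxia, 2 after 12 h of 5-fluorouracil (5FU) and 3 after 24 h in low glucose medium were used. From shControl cells without hypoxia, 2 arrays after 12 h of DMSO and 3 after 24 h in high glucose medium were also used. The hypoxic and the normal growth arrays belong to different experiments, and normoxic cells of the hypoxia experiment were not analysed here, so oxygen and experiment cannot be told apart within the shCDK8 line. The line rests on 1 hairpin, so effects of the loss of CDK8 and other properties of the line cannot be told apart either. No label says that replicates were separate cultures, so a p-value reflects only the spread among arrays of a group, and part or all of that spread can be technical.

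In normal oxygen, prolyl hydroxylases of the EGLN family mark the alpha subunits of the hypoxia-inducible factors (HIF) for degradation through VHL. When oxygen falls, the subunits accumulate, pair with ARNT and bind short hypoxia response elements to induce genes of glycolysis, angiogenesis, matrix modification and mitophagy. CDK8 is a kinase of the Mediator kinase module, which connects transcription factors to RNA polymerase II, and it is known as a coactivator of HIF1A target genes in colorectal cancer cells. The comparison asks which parts of the hypoxia response a line with reduced CDK8 still makes.

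CDK8 itself shares its transcript cluster on the array with ADRA1B, so its level is that of the combined cluster. Its deposited log2 values were 8.07 and 7.97 on the hypoxic shCDK8 arrays and 7.58, 8.53 and 8.35 on the normal growth shCDK8 arrays. In shControl cells they were 9.79 and 10.31 in hypoxia and 10.36, 10.22 and 10.23 in normal growth. Every shCDK8 array thus lay below every shControl array, and within the shCDK8 line hypoxia minus normal growth was -0.13 ± 0.20 (log2, SE, n = 2 and 3; limma adjusted p = 0.919 over all clusters). The paralogue CDK19 had 9.68 and 9.60 in hypoxic and 9.32, 9.47 and 9.49 in normal growth shCDK8 cells, a difference of 0.22 ± 0.11 that did not pass the test (limma adjusted p = 0.309).

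Normal growth shCDK8 replicate 1 stood apart. Its Pearson correlation over the 18404 tested genes with the other normal growth shCDK8 arrays was 0.989 and 0.991, where those arrays correlated at 0.998 with each other, and it correlated at 0.994 with hypoxic shCDK8 replicate 2. Its values also covered a narrower range, with an interquartile range of 2.93 against 3.35 and 3.31 in replicates 2 and 3. The 2 hypoxic shCDK8 arrays correlated at 0.997. Among the shControl arrays, hypoxic replicate 1 stood apart in the same way, with a correlation of 0.980 to hypoxic replicate 2 and an interquartile range of 2.65. Results are given with these arrays, and for named genes also without one of them where that ended a call or moved a called value by over 1.5 times.

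**Figure D1:**
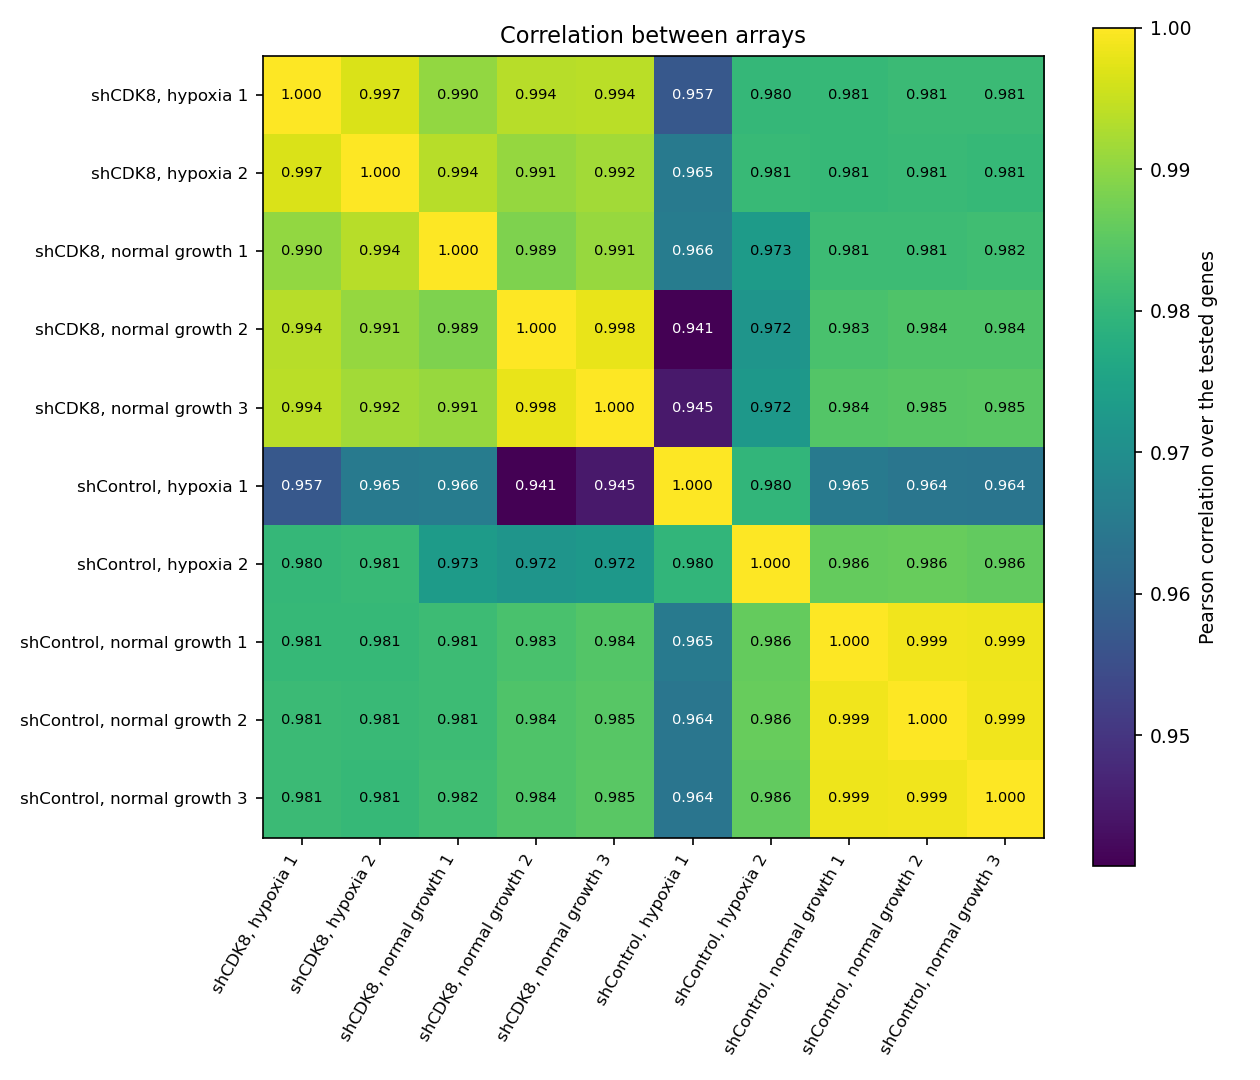
Pearson correlation over the 18404 tested genes between the 10 hypoxia and normal growth arrays of the shCDK8 and shControl lines, rows and columns in the same order. Normal growth shCDK8 replicate 1 has 0.989 and 0.991 with its own group, and hypoxic shControl replicate 1 has the lowest values of the map.

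The bases before the start of transcription of 4 genes that the results turn on are shown with the core of the hypoxia response element, ACGTG or GCGTG on either strand, in capitals (CACGT and CACGC are these cores read on the other strand, and CACGTG holds ACGTG on both). PDK1 and BNIP3 rose in both lines without a called difference, while ANKRD37 and INSIG1 had the lowest response in shCDK8 cells relative to shControl cells. Each stretch holds the 250 bases before a start annotated in RefSeq on GRCh38.p14, printed 5′ to 3′ along the gene: PDK1 at chr2:172555840-172556089 on the plus strand, BNIP3 at chr10:131981924-131982173 on the minus strand, ANKRD37 at chr4:185396591-185396840 on the plus strand and INSIG1 at chr7:155297628-155297877 on the plus strand.
PDK1: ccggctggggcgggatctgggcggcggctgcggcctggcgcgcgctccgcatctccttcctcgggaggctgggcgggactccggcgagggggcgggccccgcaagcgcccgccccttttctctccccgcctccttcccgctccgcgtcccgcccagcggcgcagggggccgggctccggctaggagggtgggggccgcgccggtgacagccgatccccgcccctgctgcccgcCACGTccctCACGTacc
BNIP3: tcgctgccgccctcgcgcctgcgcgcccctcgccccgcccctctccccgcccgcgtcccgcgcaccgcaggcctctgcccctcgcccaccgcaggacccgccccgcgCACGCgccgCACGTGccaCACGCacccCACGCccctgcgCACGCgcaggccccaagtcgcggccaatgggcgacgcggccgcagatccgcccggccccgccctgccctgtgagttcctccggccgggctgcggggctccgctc
ANKRD37: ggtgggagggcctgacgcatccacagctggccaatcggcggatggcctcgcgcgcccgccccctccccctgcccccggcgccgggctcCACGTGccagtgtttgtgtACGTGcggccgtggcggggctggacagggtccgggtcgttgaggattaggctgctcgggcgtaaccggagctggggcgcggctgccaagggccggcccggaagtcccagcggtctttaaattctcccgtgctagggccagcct
INSIG1: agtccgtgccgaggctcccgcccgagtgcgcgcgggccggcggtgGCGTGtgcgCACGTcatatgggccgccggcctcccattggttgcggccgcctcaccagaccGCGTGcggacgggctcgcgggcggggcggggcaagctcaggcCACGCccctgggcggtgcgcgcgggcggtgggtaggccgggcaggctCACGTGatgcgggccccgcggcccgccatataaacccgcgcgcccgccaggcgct
The PDK1 stretch holds 2 cores, that of BNIP3 6, that of ANKRD37 3 and that of INSIG1 6. PDK1 has another annotated start, whose window at chr2:172555123-172555422 holds 0 cores, while the other 3 genes have 1 window each. Such cores are common: 48.4% of all 35114 RefSeq promoter windows of 300 bases hold at least 1, and 62.8% of the 14229 tested genes with a window do in at least 1 window. Of the 15 genes with the largest rise in hypoxic shCDK8 cells 14 had a window, and 12 of these held a core. Of the 10 genes with the lowest response relative to shControl 9 had a window, and 8 of these held a core. A match shows only that these letters are in the window.

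Of the 18404 genes, 648 (3.52%) were higher and 1026 (5.57%) lower in hypoxic than in normal growth shCDK8 cells at a limma adjusted p under 0.05, which is meant by "called" throughout. Few of the changes were large: 37 of the called genes were at least 2-fold higher and 2 at least 2-fold lower. Without normal growth replicate 1 the counts were 754 higher (4.1%) and 1618 lower (8.79%), and 511 of the higher and 944 of the lower calls were made in both fits, with 0 calls in opposite directions. The counts of list members below are to be read beside these shares of all genes. The total of 1674 calls was 826 without hypoxic replicate 1, 714 without hypoxic replicate 2 and 1046 without normal growth replicate 3. The balance of directions moved with single arrays: 38.7% of the calls were higher with all arrays, 31.8% without normal growth replicate 1 and 54.2% (387 higher, 327 lower) without hypoxic replicate 2. It was 48.3% after quantile normalization (946 higher, 1012 lower). A fit of the 5 arrays alone, with its own estimate of the spread, called 16 genes higher and 0 lower, with 2406 genes at an unadjusted p under 0.05 in either direction. Most calls named here therefore rest on the spread estimated over all 35 arrays.

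The genes that rose were led by targets of HIF. The 15 largest rises among called genes whose arrays did not overlap were those of PLOD2, ANGPTL4, PDK1, SLCO1B3, HK2, BNIP3, ALDOC, ENO2, P4HA1, SLC2A3, PFKFB4, EGLN3, KDM3A, FAM162A and INSIG2, between 2.42 and 1.48 on the log2 scale. Of 161 tested genes in 9 lists of HIF pathway members and targets, 80 were called higher and 4 lower, and their median change was 0.27, beside a median of 0.00 over all 18404 genes. The members of these lists were chosen with earlier results of these data known, so their counts are not an independent test. Without normal growth replicate 1 the lists had 76 higher and 5 lower genes and a median of 0.28. In 67 of the 161 genes both hypoxic arrays lay above each of the other 8 shCDK8 arrays, including those in 5FU and low glucose, a pattern that 4.54% of all genes had, and in 5 they lay below all 8, as in 6.53% of all genes. The fit of the 5 arrays alone called 14 of the 161 genes, among its 16 calls (0.0869% of all genes).

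Of the 14 tested genes for oxygen sensing and HIF subunits 3 were called higher, EGLN3, EGLN1 and EPAS1, and 1 lower, HIF1A, with a median of 0.04. EGLN3, a prolyl hydroxylase that HIF itself induces, had 9.55 and 9.77 in hypoxic and 8.05, 7.98 and 7.94 in normal growth shCDK8 cells. The hypoxic arrays lay above every other array of the line, and the difference was 1.67 ± 0.095 (log2, SE; limma adjusted p = 1.48e-11), a 3.18-fold rise. EGLN1, the main HIF prolyl hydroxylase, rose by 0.83 ± 0.080, with 10.33 and 10.36 in hypoxic against 9.54, 9.44 and 9.56 in normal growth cells. EPAS1, which encodes HIF2A, had 9.27 and 9.09 in hypoxic against 8.46, 8.59 and 8.58 in normal growth cells, a rise of 0.64 ± 0.071 (limma adjusted p = 1.3e-06). Its values in 5FU (9.42 and 9.57) and low glucose (10.26 to 10.41) were higher still, so hypoxia was not the condition with the highest EPAS1. HIF1A, the alpha subunit itself, had 11.24 and 11.12 in hypoxic against 11.29, 11.69 and 11.63 in normal growth cells and was called lower, by -0.36 ± 0.11 (limma adjusted p = 0.0367). Without normal growth replicate 1 the HIF1A difference was -0.48 (limma adjusted p = 0.00293), and the call was lost without either hypoxic array and without normal growth replicate 2 or 3 (limma adjusted p between 0.0982 and 0.307).

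Glucose uptake and glycolysis made the most complete response of the lists: 20 of 22 tested genes were called higher, with a median change of 0.57, and 19 were called without normal growth replicate 1. HK2, a hexokinase gene, had 10.75 and 10.71 in hypoxic and 8.62, 8.87 and 8.70 in normal growth shCDK8 cells. The hypoxic arrays were also above the 5FU and low glucose arrays of the line (9.82 to 10.19), and the rise was 2.01 ± 0.097 (limma adjusted p = 1.25e-12), or 4.02-fold. The aldolase ALDOC had 11.96 and 11.93 in hypoxic against 9.96, 9.94 and 10.04 in normal growth cells, a rise of 1.97 ± 0.13. The enolase ENO2 had 11.83 and 11.73 in hypoxic against 9.83, 9.90 and 9.80 in normal growth cells, a rise of 1.93 ± 0.092. The glucose transporter SLC2A3 had 11.27 and 11.21 in hypoxic against 9.40, 9.50 and 9.49 in normal growth cells, a rise of 1.78 ± 0.094, and PFKFB4, which makes the allosteric activator of phosphofructokinase, rose by 1.70 ± 0.14. For each of these 5 genes the hypoxic arrays lay above every other array of the line.

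SLC2A1, the classical HIF-induced glucose transporter, moved little. It had 13.72 and 13.66 in hypoxic and 13.50, 13.50 and 13.53 in normal growth shCDK8 cells, a difference of 0.18 ± 0.052 (limma adjusted p = 0.0321). Without normal growth replicate 1 the difference was 0.17 and not called (limma adjusted p = 0.0525), and the call was also lost when any other of the 5 arrays was left out (limma adjusted p between 0.061 and 0.281). shControl cells had 12.87 and 12.77 in hypoxia and 11.71, 11.67 and 11.85 in normal growth, so every normal growth shCDK8 array lay above the hypoxic shControl arrays. The deposited values end at a ceiling of 14.29, close to the SLC2A1 level of shCDK8 cells, and the part of that ceiling in the small change was not tested.

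Regulators of mitochondrial pyruvate use and mitophagy were among the largest rises. PDK1, the kinase that turns off pyruvate dehydrogenase, had 11.21 and 11.12 in hypoxic and 8.90, 9.12 and 9.10 in normal growth shCDK8 cells, a rise of 2.13 ± 0.099 (limma adjusted p = 1.25e-12), or 4.37-fold. BNIP3, a mitophagy receptor, had 12.09 and 12.00 in hypoxic against 9.84, 10.21 and 10.16 in normal growth cells, a rise of 1.97 ± 0.11. For both genes, whose start regions are printed above, the hypoxic arrays lay above every other shCDK8 array, as they did for the 3 genes that follow. The relative BNIP3L rose by 1.12 ± 0.085, the pyruvate dehydrogenase kinase PDK3 by 0.95 ± 0.10 and FAM162A, a mitochondrial protein gene induced by HIF, by 1.58 ± 0.12. ISCU, the iron-sulfur cluster scaffold, was the member called lower, with 9.75 and 9.74 in hypoxic against 9.98, 10.29 and 10.23 in normal growth cells and a difference of -0.43 ± 0.11 (limma adjusted p = 0.0179). The ISCU call was lost without either hypoxic array and without normal growth replicate 2 or 3 (limma adjusted p between 0.07 and 0.133). Of the 13 genes of the list 7 were called higher and 1 lower. Of 4 genes of pH control and lactate export the 1 called was CA12, a carbonic anhydrase at the cell surface, with 8.05 and 8.24 in hypoxic against 7.53, 7.53 and 7.50 in normal growth cells (difference 0.62 ± 0.10). The 5FU arrays had a CA12 level close to that of hypoxia (8.06 and 8.26). CA9 was not analysed here.

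**Figure D2:**
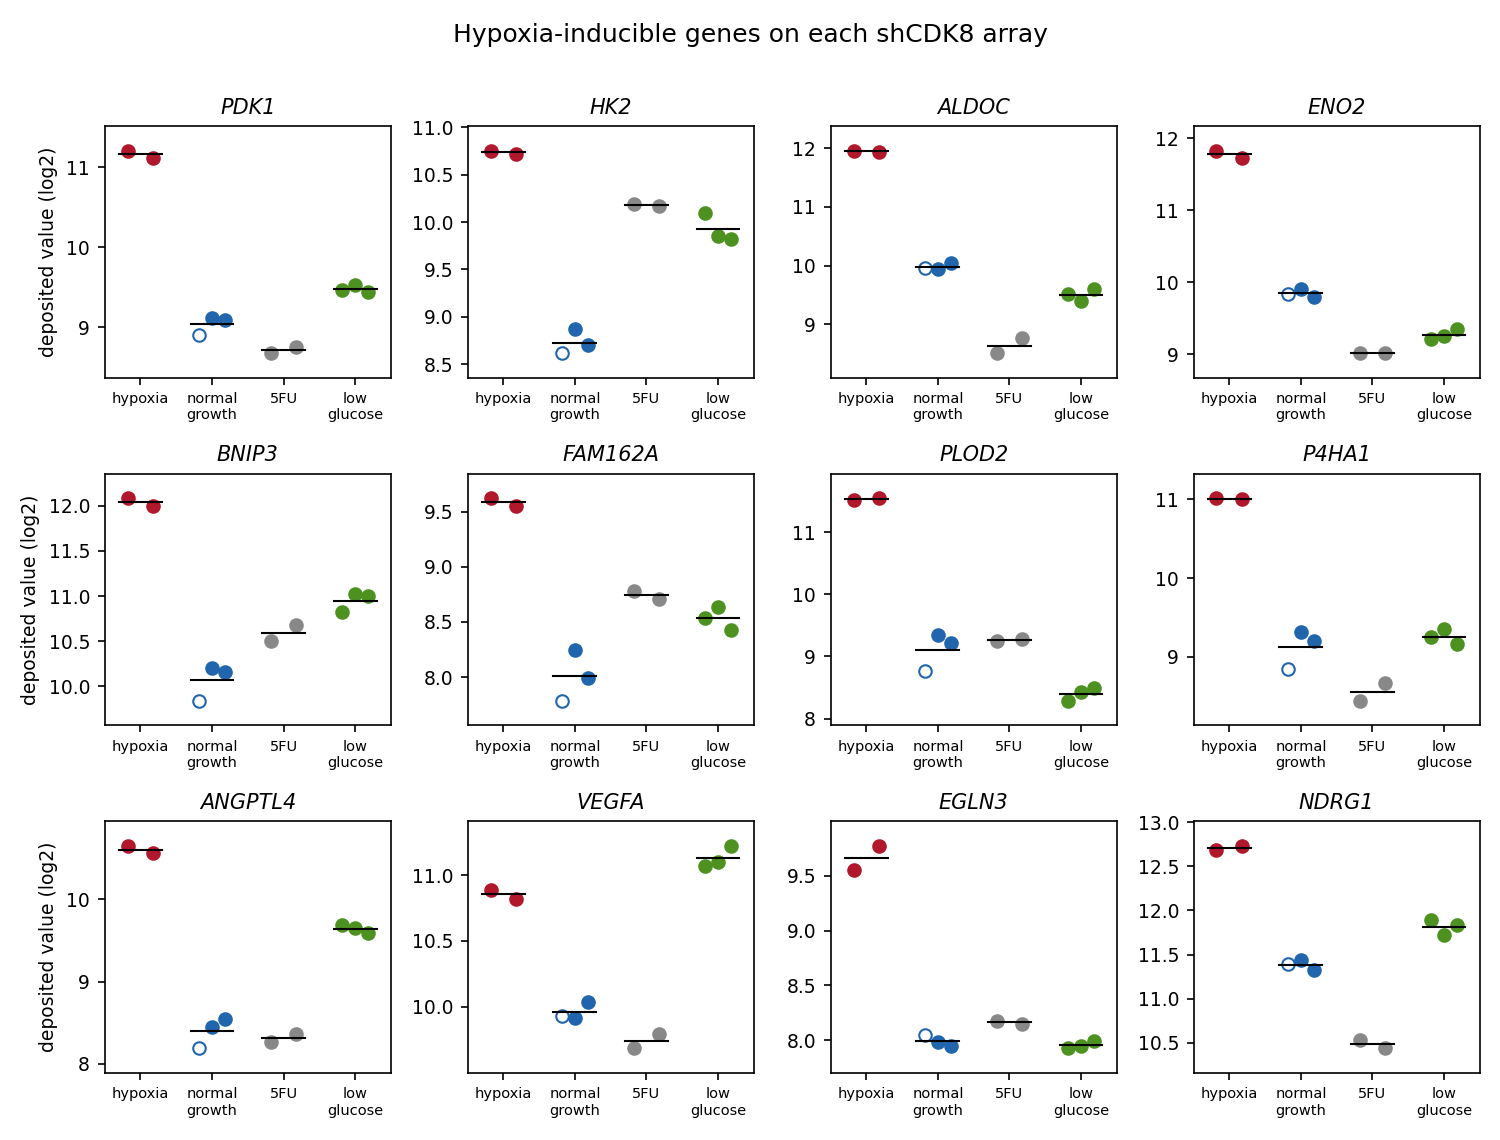
Deposited log2 value of 12 hypoxia-inducible genes on each of the 10 shCDK8 arrays, by condition with hypoxia on the left; points are arrays, lines are group means and the open circle is normal growth replicate 1. The hypoxic arrays are highest in 11 of the 12 panels, and VEGFA is higher in low glucose (11.07 to 11.22) than in hypoxia (10.89 and 10.82).

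Secreted and angiogenic factors responded in part, with 7 of 22 tested genes called higher (8 without normal growth replicate 1) and a median of 0.14. ANGPTL4, an inhibitor of lipoprotein lipase, had 10.65 and 10.56 in hypoxic and 8.19, 8.45 and 8.55 in normal growth shCDK8 cells, a 4.64-fold rise (2.21 ± 0.17, limma adjusted p = 2.53e-09). ADM, the vasodilator peptide adrenomedullin, had 10.9999 and 11.10 in hypoxic against 9.71, 9.61 and 9.60 in normal growth cells, a rise of 1.41 ± 0.080. In both, the hypoxic arrays lay above every other array of the line. VEGFA, the main angiogenic growth factor, had 10.89 and 10.82 in hypoxic against 9.93, 9.91 and 10.04 in normal growth cells. Its rise of 0.90 ± 0.068 (limma adjusted p = 2.63e-09) was 1.86-fold, and its level in low glucose was higher, at 11.07 to 11.22. The chemokine receptor CXCR4 rose by 0.90 ± 0.12 and the ephrin EFNA3 by 0.83 ± 0.12.

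Enzymes that modify collagen held the largest called change. PLOD2, a lysyl hydroxylase that prepares collagen for cross-linking, had 11.51 and 11.55 in hypoxic and 8.76, 9.35 and 9.22 in normal growth shCDK8 cells, a 5.35-fold rise (2.42 ± 0.13, limma adjusted p = 1.08e-11) that was 2.25 without normal growth replicate 1. P4HA1, the catalytic subunit of collagen prolyl hydroxylase, had 11.01 and 10.999 in hypoxic against 8.84, 9.32 and 9.20 in normal growth cells, a rise of 1.89 ± 0.12. The lysyl oxidase LOXL2 rose by 1.17 ± 0.075, the prolyl hydroxylase subunit P4HA2 by 0.74 ± 0.089 and the lysyl hydroxylase PLOD1 by 0.62 ± 0.065. For these 5 genes the hypoxic arrays lay above every other array of the line. Of the 12 tested genes of the list 6 were called higher, and 5 without normal growth replicate 1.

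Of 15 oxygen-dependent chromatin demethylase genes 4 were called higher, and 3 without normal growth replicate 1, where 3.52% and 4.1% of all genes were. KDM3A, which removes methyl groups from histone H3 lysine 9, had 10.41 and 10.28 in hypoxic and 8.55, 8.81 and 8.77 in normal growth shCDK8 cells, a 3.11-fold rise (1.64 ± 0.13, limma adjusted p = 4.28e-09). KDM4B, a histone demethylase, rose by 0.65 ± 0.066. Its relative KDM4C had 9.06 and 9.03 in hypoxic against 7.92, 8.58 and 8.44 in normal growth cells, with normal growth replicate 1 the lowest. The KDM4C difference was 0.73 ± 0.18 (limma adjusted p = 0.00925), was 0.54 without that array and was not called without either hypoxic array (limma adjusted p = 0.0824 and 0.0767).

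Among transcriptional regulators induced by HIF, 6 of 13 were called higher. The zinc finger gene ZNF654 had 9.31 and 9.26 in hypoxic and 7.72, 8.27 and 8.18 in normal growth shCDK8 cells, a rise of 1.23 ± 0.21 (limma adjusted p = 0.000295). ZNF395 rose by 0.68 ± 0.067 and RBPJ, the DNA-binding partner of Notch, by 0.62 ± 0.093. BHLHE40, a repressor that takes part in the circadian clock, had 11.68 and 11.61 in hypoxic against 11.21, 10.80 and 10.94 in normal growth cells, a rise of 0.67 ± 0.11 (0.78 without normal growth replicate 1). Its relative BHLHE41 rose by 0.55 ± 0.084.

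Of 46 targets with roles in stress, growth control and protein turnover, 26 were called higher and 2 lower. INSIG2, which holds the sterol sensor in the endoplasmic reticulum, had 9.16 and 8.97 in hypoxic and 7.36, 7.61 and 7.79 in normal growth shCDK8 cells, a 2.79-fold rise (1.48 ± 0.16, limma adjusted p = 1.21e-06). NDRG1, a widely used hypoxia marker, had 12.68 and 12.73 in hypoxic against 11.39, 11.44 and 11.32 in normal growth cells, a rise of 1.32 ± 0.099 (limma adjusted p = 2.53e-09). DDIT4, an inhibitor of mTORC1 signalling, had 11.01 and 10.99 in hypoxic against 9.64, 9.69 and 9.75 in normal growth cells. Its rise was 1.31 ± 0.12, to a level below that of the low glucose arrays (11.07 to 11.11). TMEM45A, a membrane protein gene, rose by 1.27 ± 0.14. ANKRD37, a small ankyrin repeat protein gene, had 8.59 and 8.57 in hypoxic against 7.26, 7.77 and 7.43 in normal growth cells, a rise of 1.10 ± 0.12 (limma adjusted p = 6.75e-07).

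Outside the hypoxia lists, SLCO1B3, an organic anion transporter gene of liver that colon cancers can express, had 9.97 and 9.78 in hypoxic and 7.38, 8.12 and 7.93 in normal growth shCDK8 cells (2.07 ± 0.26, limma adjusted p = 1.01e-05). CDH1, the epithelial cadherin, had 10.05 and 9.97 in hypoxic against 8.99, 9.21 and 9.28 in normal growth cells, a rise of 0.85 ± 0.080 (limma adjusted p = 1.31e-07), and its level in low glucose was higher, at 11.64 to 11.72. In a list of 27 TGF-beta and epithelial-mesenchymal transition genes 5 were called higher and 0 lower. Beside CDH1, which this transition is known to reduce, these were the fibronectin gene FN1 (0.41 ± 0.067) and the collagen gene COL1A1 (0.30 ± 0.095), which it is known to raise, and the ligands TGFB2 (0.38 ± 0.11) and TGFB1 (0.29 ± 0.066). TGFB1 was named after its values were seen, and the TGFB2 call was lost without normal growth replicate 1 (limma adjusted p = 0.0904). Of 35 immediate early genes, which growth factor signals induce rapidly, 8 were called higher, where 3.52% of all genes were. Without normal growth replicate 1, 7 were higher and 1 lower, where 4.1% and 8.79% of all genes were. The transcription factor KLF4 rose by 0.64 ± 0.11, the receptor signalling inhibitor SPRY2 by 0.50 ± 0.11 and the AP-1 subunit JUNB by 0.49 ± 0.071. The SPRY2 call was lost without hypoxic replicate 1 (limma adjusted p = 0.0804).

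The genes that fell had smaller changes. H2AC15, a replication-dependent histone gene, had 9.65 and 9.87 in hypoxic and 10.88, 10.60 and 11.15 in normal growth shCDK8 cells, the largest called fall at -1.12 ± 0.24 (limma adjusted p = 0.00331). Its call was lost without hypoxic replicate 1 (limma adjusted p = 0.0658). The receptor gene GPR15 had 8.18 and 7.97 in hypoxic against 9.06, 9.28 and 9.11 in normal growth cells (-1.07 ± 0.12, limma adjusted p = 2.53e-06). In neither gene did the groups overlap. The next changes were -0.87 ± 0.13 for CHAC1, -0.80 ± 0.20 for POGLUT2, -0.79 ± 0.14 for SLC7A11, -0.77 ± 0.11 for the innate immune receptor TLR3 and -0.76 ± 0.084 for TLCD1. The POGLUT2 call was lost without either hypoxic array and without normal growth replicate 2 or 3 (limma adjusted p between 0.0599 and 0.105). The change of H2BC14 was -0.62 ± 0.099, and 5 of 44 replication-dependent histone genes were called lower (9 without normal growth replicate 1), where 5.57% of all genes were (8.79% without that array). Histone genes have near-identical copies that can share probes, so the level of a single histone gene is uncertain.

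Among targets of ATF4, the factor that induces amino acid transport and synthesis under stress, 19 of 41 tested genes were called lower and 1 higher, with a median of -0.17. CHAC1, which degrades glutathione, had 8.85 and 8.98 in hypoxic and 9.85, 9.70 and 9.79 in normal growth shCDK8 cells. The cystine transporter SLC7A11 had 10.35 and 10.35 in hypoxic against 10.93, 11.26 and 11.21 in normal growth cells. Neither gene's groups overlapped, and the neutral amino acid transporter SLC1A4 (-0.72 ± 0.12), the serine synthesis enzyme PSAT1 (-0.69 ± 0.068) and the asparagine synthetase ASNS (-0.68 ± 0.074) also fell. Of 27 endoplasmic reticulum chaperone genes 7 were called lower, and 10 without normal growth replicate 1, where 5.57% and 8.79% of all genes were. The difference was -0.55 ± 0.097 for SDF2L1 and -0.55 ± 0.13 for DNAJB9. The DNAJB9 call was lost without hypoxic replicate 1 (limma adjusted p = 0.119).

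Sterol and fatty acid synthesis was the list with the highest share of lower calls, 17 of 27 genes, with a median of -0.36 (19 genes and -0.41 without normal growth replicate 1). SREBF1, which encodes a factor that drives these genes, had 10.52 and 10.54 in hypoxic and 10.97, 11.03 and 10.98 in normal growth shCDK8 cells, a change of -0.46 ± 0.066 (limma adjusted p = 4.2e-05). The change was -0.46 ± 0.081 for the sterol demethylase CYP51A1, -0.43 ± 0.088 for DHCR7, which completes cholesterol synthesis, and -0.43 ± 0.082 for INSIG1. CYP51A1 was not called when the clusters of a gene were averaged (limma adjusted p = 0.105). HMGCS1, an early enzyme of the mevalonate pathway, had 8.41 and 8.22 in hypoxic against 8.51, 9.03 and 8.93 in normal growth cells, a difference of -0.50 ± 0.15 (limma adjusted p = 0.0388). Without normal growth replicate 1 the HMGCS1 difference was -0.66 (limma adjusted p = 0.00513), while its call was lost without either hypoxic array and without normal growth replicate 2 or 3 (limma adjusted p between 0.0894 and 0.342). ELOVL6, a fatty acid elongase, had a difference of -0.50 ± 0.17 that was not called (limma adjusted p = 0.063) and was -0.63 without normal growth replicate 1 (limma adjusted p = 0.0166).

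Of 47 genes of S phase and DNA replication 16 were called lower, with a median of -0.25. The count depended on the array that stood apart and was 25 without normal growth replicate 1. ORC1, a subunit of the origin recognition complex, had 8.02 and 7.87 in hypoxic and 8.26, 8.64 and 8.55 in normal growth shCDK8 cells (-0.54 ± 0.098, limma adjusted p = 0.00076). The difference was -0.48 ± 0.13 for GINS4, a part of the replicative helicase, and -0.48 ± 0.15 for POLE2, a subunit of DNA polymerase epsilon. The calls of GINS4 and POLE2 were lost without either hypoxic array and without normal growth replicate 2 or 3 (limma adjusted p between 0.0775 and 0.426). In RNA of a whole culture, fewer cells in S phase and less of these mRNAs per cell cannot be told apart. Of 52 mitosis genes 8 were called lower, and 19 without normal growth replicate 1, where 5.57% and 8.79% of all genes were.

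Of 37 ribosome biogenesis genes 8 were called lower and 1 higher, and 13 lower and 1 higher without normal growth replicate 1. URB2, a factor of ribosome assembly, had 9.03 and 8.95 in hypoxic and 9.46, 9.65 and 9.64 in normal growth shCDK8 cells (-0.59 ± 0.11, limma adjusted p = 0.00103), and RRP9, which takes part in the processing of ribosomal RNA, fell too, at -0.47 ± 0.081. Of 51 nuclear genes of oxidative phosphorylation 9 were called lower, and 8 without normal growth replicate 1, where 5.57% and 8.79% of all genes were. The respiratory chain subunits COX8A and NDUFA9 had differences of -0.39 ± 0.095 and -0.34 ± 0.062, and the COX8A call was lost without hypoxic replicate 2 and without normal growth replicate 3 (limma adjusted p = 0.158 and 0.0584). Of 40 interferon-stimulated genes 5 were called lower, and 10 without normal growth replicate 1, where 5.57% and 8.79% of all genes were. The difference was -0.59 ± 0.12 for IFITM3, which restricts virus entry, and -0.55 ± 0.10 for IFI6. For beta-catenin and TCF targets 1 of 24 was higher and 1 lower (1 and 3 without normal growth replicate 1), close to the 3.52% and 5.57% of all genes. For p53 targets 3 of 28 were lower (4 without normal growth replicate 1, where 8.79% of all genes were).

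**Figure D3:**
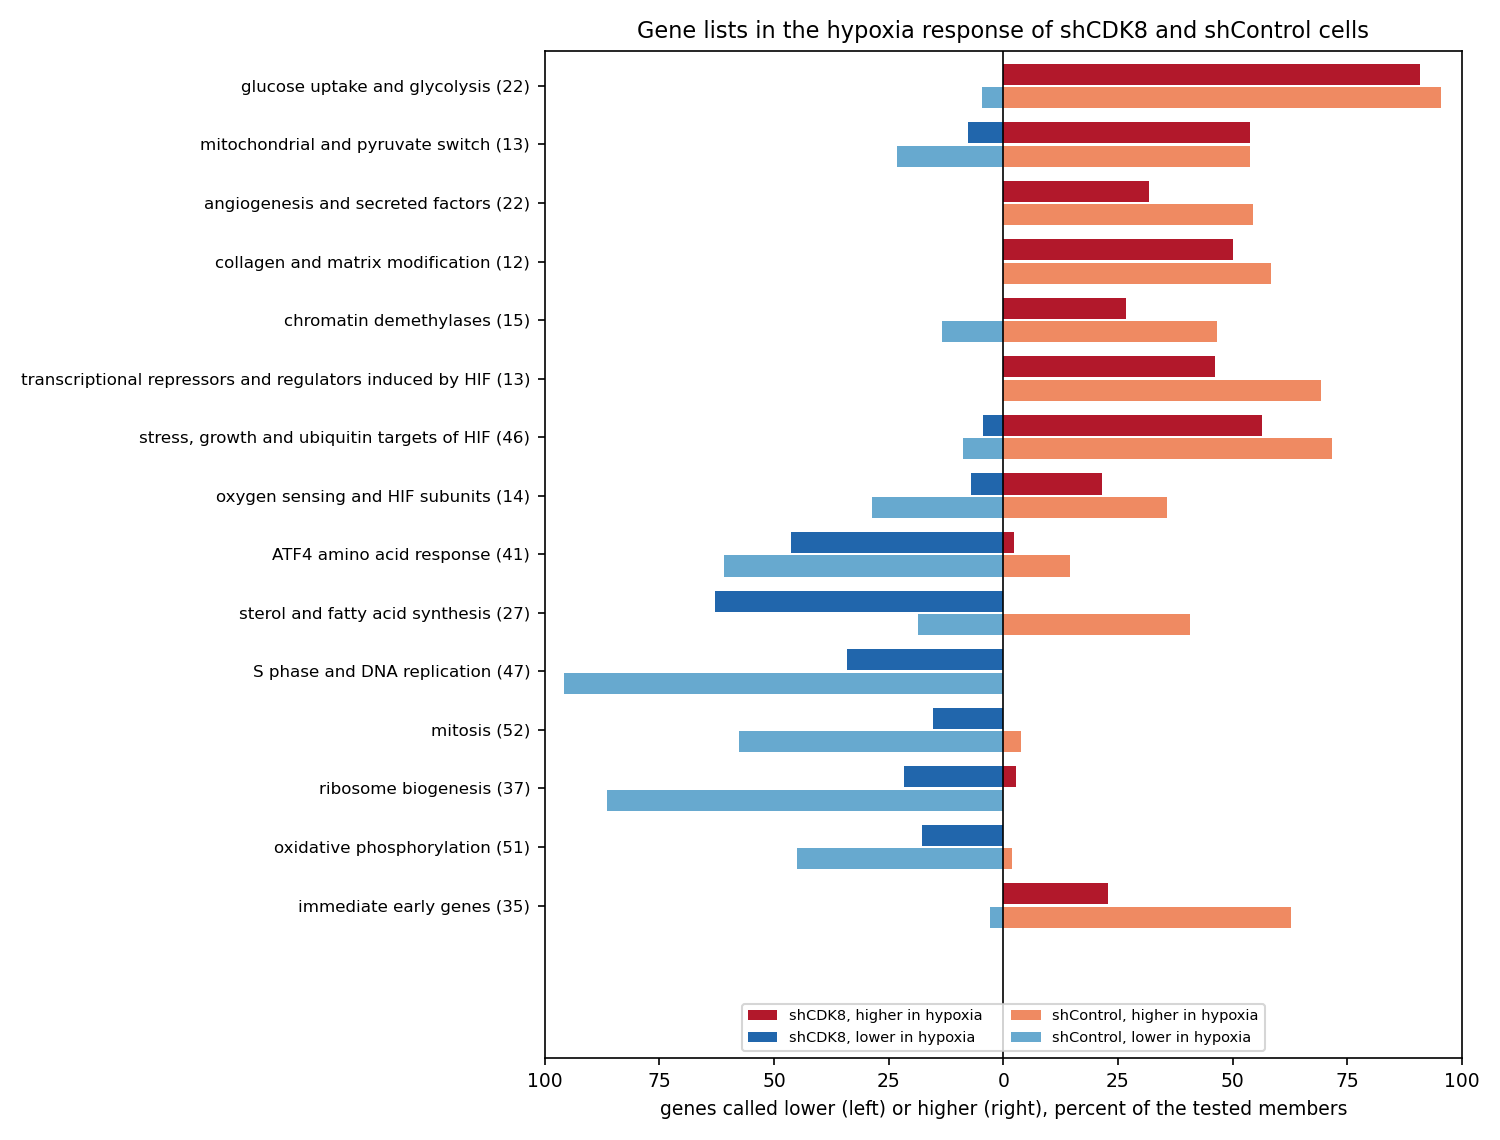
Share of the tested members of 15 gene lists called higher (right) or lower (left) in hypoxia than in normal growth, as a percentage, with shCDK8 above shControl for each list and the number of tested members in parentheses. In shCDK8 cells 20 of 22 glycolysis genes were higher and 17 of 27 sterol genes lower, against 21 higher glycolysis genes and 11 higher sterol genes in shControl cells.

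The same contrast in shControl cells, which shares no array with the shCDK8 contrast, called 3879 genes higher (21.1%) and 4922 lower (26.7%), with 110 at least 2-fold higher and 316 at least 2-fold lower. Without hypoxic shControl replicate 1 the total of 8801 calls (47.8%) was 4549. Of the 648 genes called higher in shCDK8 cells 480 (74.1%) were also called higher in shControl cells, which is 12.4% of the shControl calls. Of the 1026 lower genes 887 (86.5%) were also lower in shControl cells, 18% of the shControl calls. Over the 18404 genes the responses of the lines correlated at 0.656, at 0.781 without normal growth shCDK8 replicate 1 and at 0.682 without hypoxic shControl replicate 1. Genes are not independent replicates, and both contrasts set the same pair of experiments against each other. The 110 genes induced at least 2-fold in shControl cells had a median change of 0.64 in shCDK8 cells against 1.32 in shControl cells, where the choice of the genes raises the second value. Of these 110 genes 83 (75.5%) were called higher in shCDK8 cells, 1 was called lower and 32 were at least 2-fold higher. These values depended on the shControl arrays that chose the genes. Without hypoxic shControl replicate 1 there were 144 such genes, of which 108 (75%) were called higher in shCDK8 cells with a median of 0.60. Without hypoxic shControl replicate 2 there were 169, of which 79 (46.7%) were, with a median of 0.28. Of the 316 genes reduced at least 2-fold in shControl cells 104 (32.9%) were called lower in shCDK8 cells, and 173 without normal growth shCDK8 replicate 1.

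The difference of the responses, shCDK8 minus shControl, was tested directly as an interaction in the same fit, in which a shift common to all arrays of an experiment cancels. It was called higher for 1667 genes (9.06%) and lower for 451 (2.45%), so 78.7% of the called differences were higher in shCDK8. That share was 67.6% with each array scaled to its median and 61.3% after quantile normalization, 57.6% without hypoxic shControl replicate 2, and 56.6% without both arrays that stood apart. The total of 2118 (11.5%) was 1434 without normal growth shCDK8 replicate 1 (5.78% higher and 2.02% lower), 1121 without hypoxic shCDK8 replicate 1, 1092 (5.93%) without hypoxic shControl replicate 1 (4% higher and 1.93% lower) and 6947 without hypoxic shControl replicate 2. In the 9 hypoxia lists 29 of 161 genes had a lower and 5 a higher response in shCDK8 cells, 31 and 3 without normal growth shCDK8 replicate 1 and 32 and 3 without hypoxic shControl replicate 1.

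**Figure D4:**
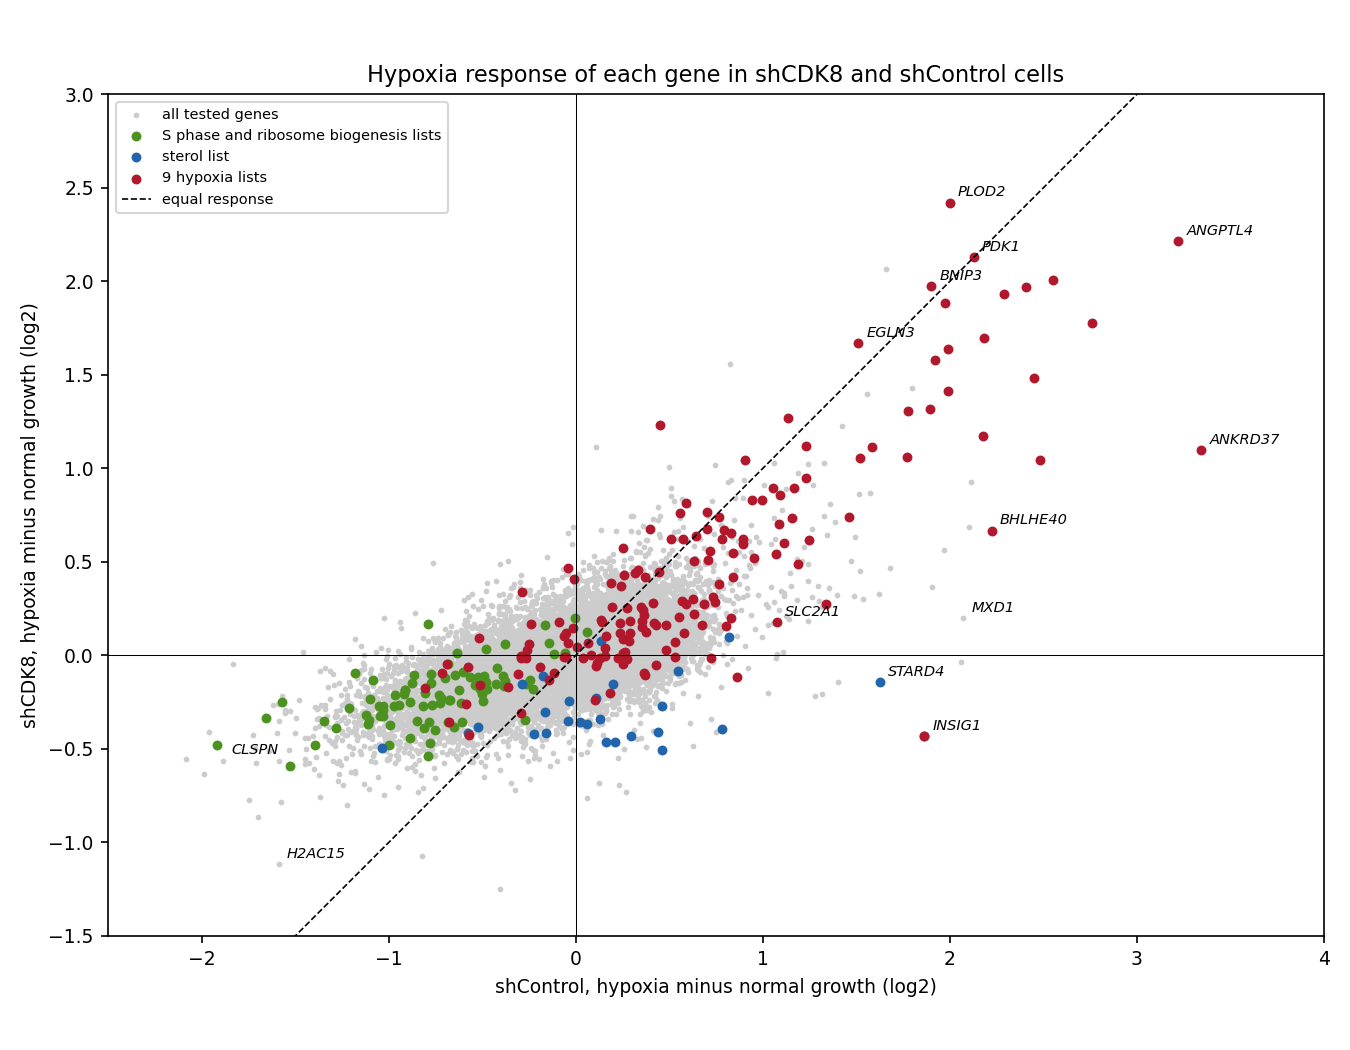
Hypoxia minus normal growth (log2) of every tested gene in shCDK8 cells (vertical axis) and in shControl cells (horizontal axis), with the 9 hypoxia lists, the sterol list and the S phase and ribosome biogenesis lists coloured and the line of equal response dashed. PDK1 lies on the line, with 2.13 in both lines, while INSIG1 lies at -0.43 in shCDK8 and 1.86 in shControl cells.

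Several core targets had responses that the test did not separate between the lines. PDK1 rose by 2.13 in shCDK8 and 2.13 in shControl cells, and BNIP3 by 1.97 and 1.90. The standard errors of their differences were 0.14 and 0.15. The difference was 0.16 ± 0.13 for EGLN3, 0.42 ± 0.19 for PLOD2 and -0.27 ± 0.096 for VEGFA, and none of the 5 differences was called (limma adjusted p between 0.0688 and 1). The VEGFA difference was called after quantile normalization, at -0.33 (limma adjusted p = 0.019), and without normal growth shControl replicate 1, at -0.31 (limma adjusted p = 0.0486). It was -0.37 without hypoxic shControl replicate 1 and -0.38 without both arrays that stood apart. That of PLOD2 was called without hypoxic shControl replicate 2, at 0.57 (limma adjusted p = 0.0368). A p that misses the threshold does not show that the responses were equal.

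Other induced genes rose in shCDK8 cells by less. ANKRD37 had the lowest difference among genes that were still called higher, with 8.59 and 8.57 in hypoxic and 7.26, 7.77 and 7.43 in normal growth shCDK8 cells, against 11.03 and 11.04 in hypoxic and 7.84, 7.51 and 7.72 in normal growth shControl cells. Its normal growth levels overlapped between the lines, and its hypoxic levels did not. The difference of its responses was -2.25 ± 0.16 (limma adjusted p = 5.57e-09). BHLHE40 had a difference of -1.56 ± 0.16 (limma adjusted p = 8.27e-07), with 11.68 and 11.61 in hypoxic shCDK8 cells against 12.31 and 12.49 in hypoxic shControl cells, and 11.21, 10.80 and 10.94 in normal growth shCDK8 against 10.22, 9.90 and 10.40 in normal growth shControl cells. It thus differed between the lines in both conditions, in opposite directions. The differences for ANGPTL4, LOXL2 and SLC2A3 were -1.01 ± 0.24, -1.003 ± 0.11 and -0.99 ± 0.13, those for INSIG2, SLC2A1 and P4HA2 were -0.97 ± 0.23, -0.90 ± 0.074 and -0.72 ± 0.13, and those for ADM, NDRG1 and HK2 were -0.58 ± 0.11, -0.57 ± 0.14 and -0.55 ± 0.14. All 9 were called in the main fit (limma adjusted p between 3.75e-08 and 0.0101). With array weights those for ADM, ANGPTL4, HK2 and NDRG1 were not called (limma adjusted p between 0.136 and 0.249). That for INSIG2 was not called in a fit of only the 15 hypoxia and normal growth arrays (limma adjusted p = 0.0632). The SLC2A1 level of shCDK8 cells was close to the ceiling of the values in both conditions, as given above.

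A further group rose in shControl cells and was not called in shCDK8 cells. DUSP1, a phosphatase that turns off MAP kinases, had 9.18 and 9.14 in hypoxic and 9.05, 9.38 and 9.16 in normal growth shCDK8 cells, against 11.57 and 11.67 in hypoxic and 9.63, 9.57 and 9.47 in normal growth shControl cells. Its hypoxic and normal growth arrays overlapped in shCDK8 cells, and the difference of the responses was -2.09 ± 0.13 (limma adjusted p = 4.16e-10). MXD1, an antagonist of MYC, had 8.57 and 8.45 in hypoxic and 8.20, 8.31 and 8.43 in normal growth shCDK8 cells, against 10.60 and 11.08 in hypoxic and 8.81, 8.71 and 8.79 in normal growth shControl cells (difference -1.87 ± 0.18, limma adjusted p = 3.92e-07). The difference was -1.55 ± 0.13 for the stress gene GADD45B, -1.54 ± 0.17 for the growth factor PDGFA, -1.52 ± 0.12 for the nuclear receptor NR4A3 and -1.49 ± 0.18 for its relative NR4A2. In shCDK8 cells alone the changes of these 6 genes lay between -0.22 and 0.36 and were not called (limma adjusted p between 0.0607 and 0.924). That of PDGFA, however, was called in several alternatives. It was 0.47 without normal growth replicate 2 (limma adjusted p = 0.0173), 0.43 after quantile normalization (limma adjusted p = 0.00343) and 0.30 with array weights (limma adjusted p = 0.0223). Without normal growth replicate 1 it was 0.24 and not called (limma adjusted p = 0.183). Of the 35 immediate early genes 15 had a lower and 2 a higher response in shCDK8 cells, where 2.45% and 9.06% of all genes did.

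Of the 27 sterol and fatty acid genes 14 had a called lower response in shCDK8 than in shControl cells, where 2.45% of all genes did. The count was 16 without normal growth shCDK8 replicate 1 (2.02% of all genes) and 15 without hypoxic shControl replicate 1 (1.93% of all genes). INSIG1, a feedback brake on sterol synthesis, had 9.11 and 9.08 in hypoxic and 9.32, 9.67 and 9.58 in normal growth shCDK8 cells, against 11.49 and 11.52 in hypoxic and 9.76, 9.60 and 9.55 in normal growth shControl cells. It was called lower in shCDK8 cells and higher in shControl cells, as were HMGCS1, DHCR7 and SREBF1, and its difference of -2.30 ± 0.12 (limma adjusted p = 9.94e-12) was the largest called difference of all tested genes. The difference was -1.77 ± 0.20 for the cholesterol carrier STARD4 (limma adjusted p = 3.63e-06), -0.97 ± 0.22 for HMGCS1, -0.73 ± 0.13 for DHCR7, -0.67 ± 0.093 for SREBF1 and -0.62 ± 0.12 for CYP51A1. That of CYP51A1 was not called when the clusters of a gene were averaged (limma adjusted p = 0.149). The HMGCS1 difference was -0.64 without hypoxic shControl replicate 2. It was not called in a fit of only the 15 hypoxia and normal growth arrays (limma adjusted p = 0.0893). STARD4 was not called in shCDK8 cells (-0.14, limma adjusted p = 0.684), and CYP51A1 was not called in shControl cells (0.16, limma adjusted p = 0.099). In shControl cells 11 of the 27 were called higher and 5 lower, where 21.1% and 26.7% of all genes were.

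Many genes of replication and ribosome assembly had the smaller fall in shCDK8 cells. Of the 47 S phase genes 45 were called lower in shControl cells, with a median of -0.79, where 26.7% of all genes were. A called difference with the higher response in shCDK8 cells was found for 31 of the 47, and for 9.06% of all genes. That count was 26 without normal growth shCDK8 replicate 1 and 19 without hypoxic shControl replicate 1. Of the 37 ribosome biogenesis genes 32 were lower in shControl cells and 25 had the higher response in shCDK8 cells (20 and 15 without those arrays). CLSPN, a checkpoint adaptor at replication forks, had 8.27 and 8.17 in hypoxic and 8.35, 8.99 and 9.02 in normal growth shCDK8 cells, against 6.96 and 7.57 in hypoxic and 9.21, 9.27 and 8.99 in normal growth shControl cells. Its difference was 1.33 ± 0.27 (limma adjusted p = 0.00211). The CLSPN difference was 1.02 without hypoxic shControl replicate 1 and 0.80 without both arrays that stood apart. With array weights it was 1.14 and not called (limma adjusted p = 0.0756). CHRNA5, a nicotinic receptor subunit gene, had 9.81 and 9.75 in hypoxic and 10.03, 10.33 and 10.22 in normal growth shCDK8 cells, against 8.25 and 9.16 in hypoxic and 10.70, 10.63 and 10.66 in normal growth shControl cells. Its difference was 1.55 ± 0.21 (limma adjusted p = 5.22e-05), and 1.10 without hypoxic shControl replicate 1. In both genes that array was the lowest of the 10. Within shCDK8 cells the CLSPN change was -0.56 and not called (limma adjusted p = 0.0674), and -0.78 and called without normal growth replicate 1 (limma adjusted p = 0.00602). Among the 41 ATF4 targets the differences went both ways, with 8 higher and 3 lower in shCDK8 cells (5 and 2 without hypoxic shControl replicate 1). Of all genes 9.06% had a called higher and 2.45% a called lower difference. The 3 lower ATF4 targets were the stress-induced factors DDIT3 (-0.99) and ATF3 (-0.71), named after their values were seen, and ASNS (-0.34).

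**Figure D5:**
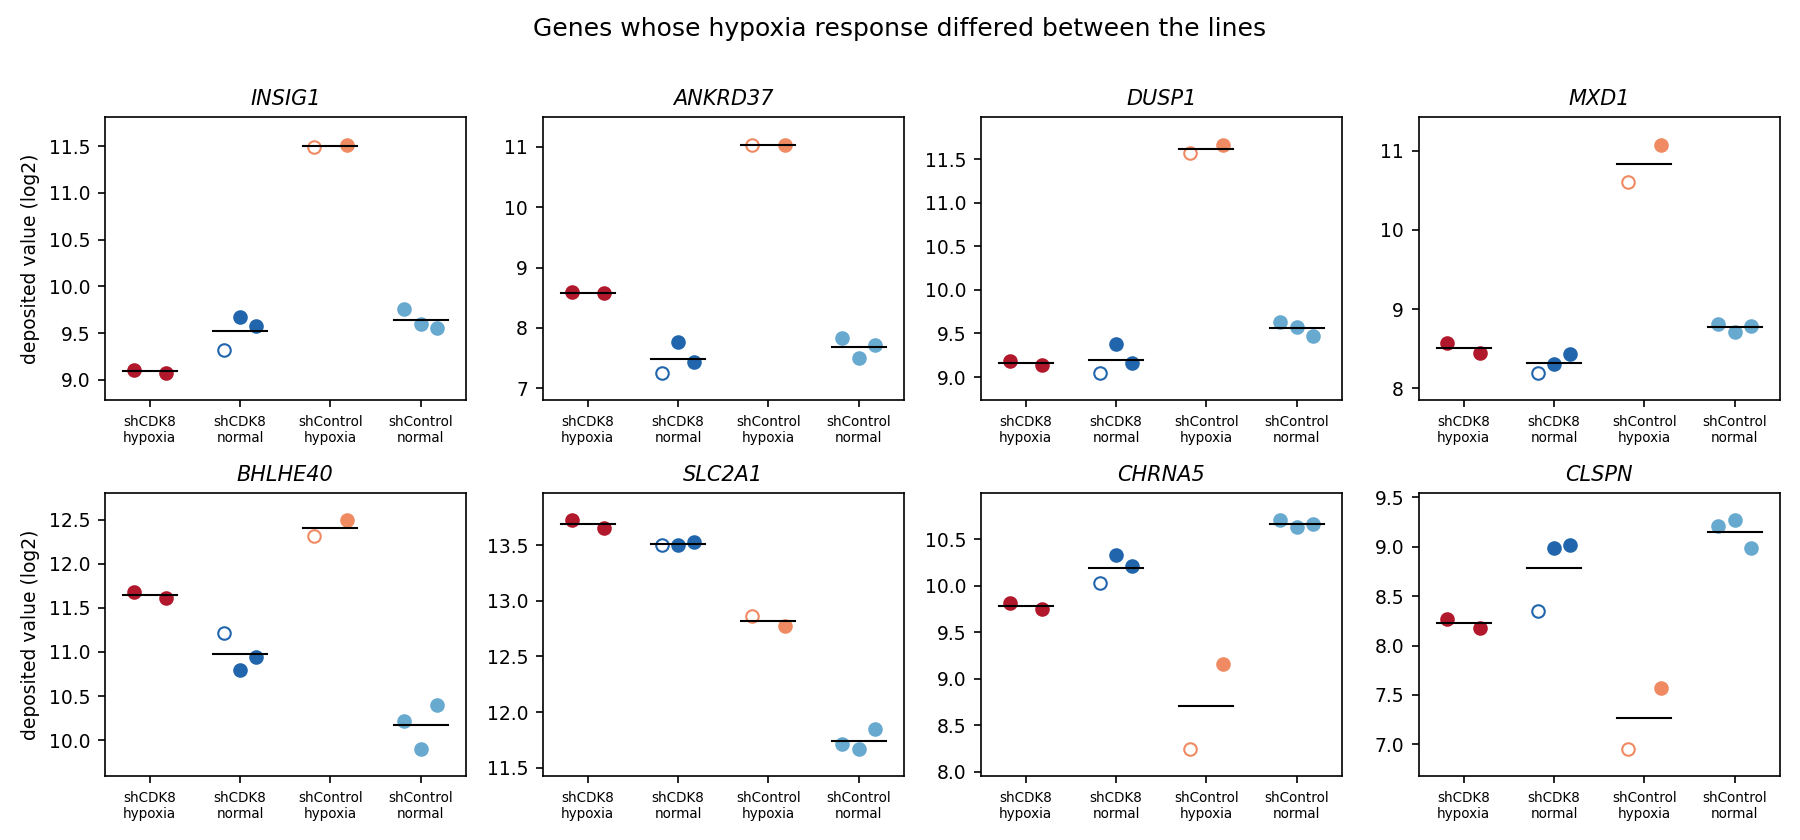
Deposited log2 value of 8 genes whose response differed, on each array of hypoxic and normal growth shCDK8 cells and of hypoxic and normal growth shControl cells, left to right; points are arrays, lines are group means, and open circles are normal growth shCDK8 replicate 1 and hypoxic shControl replicate 1. INSIG1 lies at 9.11 and 9.08 in hypoxic shCDK8 and at 11.49 and 11.52 in hypoxic shControl cells, and SLC2A1 is above 13 on all 5 shCDK8 arrays shown.

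Because hypoxia and normal growth were separate experiments, shControl arrays without hypoxia from the other experiments were set beside them in the same fit. DMSO against normal growth called 40.1% of all 18404 genes, 2700 higher and 4681 lower. High glucose medium against normal growth called 30.4%, 3336 higher and 2257 lower. Vehicle or medium also differed in these pairs. In DMSO 14 of the 161 hypoxia list genes were higher and 69 lower (median -0.13), and in high glucose 43 were higher and 27 lower (median 0.04). In the same lists hypoxic shControl cells had 102 higher and 15 lower genes (median 0.48), beside 21.1% and 26.7% of all genes. Hypoxic shCDK8 cells had 80 higher and 4 lower genes of these lists (median 0.27), beside 3.52% and 5.57% of all genes. Of 22 genes of differentiated colon epithelium 1 was called lower, where 5.57% of all genes were. Of markers of other cell types, 1 of 10 for fibroblasts, 1 of 13 for leukocytes and 0 of 10 for endothelium were called higher. Of all genes 3.52% were. The called fibroblast marker was COL1A1, and the called leukocyte marker was CD68, a lysosomal protein gene that other cells also express, at 0.45 ± 0.071. Summed as linear values, the colon epithelium genes reached 28653 to 28758 on hypoxic and 26783 to 28114 on normal growth shCDK8 arrays. The leukocyte markers reached 4009 to 4043 against 3655 to 3743. In neither sum did the groups overlap. Of single genes 12.3% lay above every normal growth array, but a sum of linear values over several genes is not a like measure. Such sums rest on the few members with the highest levels. Among leukocyte markers these were CD68, with means of 10.63 in hypoxic and 10.18 in normal growth cells, and LYZ, with 10.49 and 10.59. Among colon epithelium genes they were KRT8 (13.33 and 13.33), KRT18 (13.13 and 13.02) and KRT19 (12.12 and 11.96). The sums overlapped for fibroblast markers, at 1007 to 1041 in hypoxia against 828 to 1089 in normal growth, and for endothelium markers, at 861 to 915 against 829 to 984. Their part in the results was not tested.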

How the data were processed

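RNA was measured on whole-transcript gene arrays, 1 sample per array. The deposited values are log2 intensities between a shared floor of 4.32 and a shared ceiling of 14.29. Partek is named without a version per the submitters' processing notes, and how the authors corrected, summarized and normalized the signal is not stated in what was available. Of 32321 transcript clusters, 19158 have 1 gene symbol, 1388 several and 11775 none listed. For 637 genes with more than 1 cluster the one with the highest mean was kept, which gave 18404 tested genes. Arrays give no read depth, so their number limits the precision.

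All 35 arrays were fitted with a mean per group (14 groups, 21 residual degrees of freedom) in limma 3.58.1 under R 4.3.3, with tables read by data.table (version 1.17.8). Two-sided moderated tests were adjusted over all genes by the Benjamini-Hochberg method at 0.05. The contrasts were hypoxia minus normal growth in shCDK8, the same in shControl, and the first minus the second. Named genes were a fixed set with CDK8 and VEGFA, up to 15 in each direction with the largest called changes without overlap between arrays, up to 5 called members per list and up to 10 per direction for the difference. The members and the 27 lists were chosen with earlier results of these data known. The fit was tested on simulated data with changed genes. Leaving out each array, other scalings, filters, weights and blocks were tried as alternatives.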

Additional observations from a re-analysis of the deposited data

Results flagged for a closer look

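From a list of genes drawn up for the text, these were singled out because the difference itself passed the limma threshold. That difference is the hypoxia response of shCDK8 minus that of shControl cells. They are a part of the 2118 genes that passed it. DDIT3, ATF3 and FN1, named above, also passed but were not on that list. All values are log2 differences of the 2 responses. Among targets of HIF, stress and signalling genes and sterol genes the response was lower in shCDK8 cells, with differences of -2.30 for INSIG1, -2.25 for ANKRD37, -2.09 for DUSP1, -1.87 for MXD1, -1.77 for STARD4, -1.56 for BHLHE40, -1.55 for GADD45B, -1.54 for PDGFA, -1.52 for NR4A3 and -1.49 for NR4A2. Smaller differences of the same direction were -1.07 for CD68, -1.01 for ANGPTL4, -1.003 for LOXL2, -0.99 for SLC2A3, -0.97 for INSIG2, -0.97 for HMGCS1, -0.90 for SLC2A1, -0.86 for KLF4, -0.77 for DNAJB9 and -0.73 for DHCR7, and -0.72 for P4HA2, -0.67 for SREBF1, -0.62 for CYP51A1, -0.58 for ADM, -0.57 for NDRG1, -0.55 for HK2, -0.52 for SDF2L1 and -0.34 for ASNS.

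The response was higher in shCDK8 cells with differences of 0.45 for PSAT1, 0.61 for TLCD1, 0.79 for SLC7A11, 0.83 for CHAC1, 0.92 for POLE2, 0.93 for URB2, 0.97 for TLR3, 1.005 for DPP4 and 1.32 for CCNE2, and 1.33 for CLSPN, 1.33 for MTBP, 1.35 for ZNF780B, 1.35 for YAE1, 1.35 for POGLUT1, 1.44 for UTP15, 1.53 for FAM111B, 1.55 for CHRNA5 and 1.79 for SLC10A5. As examples of the larger ones, SLC10A5, a transporter family gene, had a change of -0.05 ± 0.25 in shCDK8 and -1.83 in shControl cells, and the cyclin gene CCNE2 had -0.25 ± 0.17 and -1.57, neither called in shCDK8 cells. Several of these values rested on hypoxic shControl replicate 1, which stood apart. Without it the difference was 1.18 for SLC10A5, 0.78 for UTP15 and 0.78 for YAE1, all still called (limma adjusted p = 0.0253, 0.00556 and 0.00404). The call was lost for SLC7A11, at 0.41 (limma adjusted p = 0.181), POLE2, at 0.54 (limma adjusted p = 0.0844), MTBP, at 0.76 (limma adjusted p = 0.0671), ZNF780B, at 0.70 (limma adjusted p = 0.215), and ASNS, at -0.34 (limma adjusted p = 0.102). The HMGCS1 difference was -0.64 without hypoxic shControl replicate 2, and it was not called in a fit of only the 15 hypoxia and normal growth arrays (limma adjusted p = 0.0893). Without hypoxic shCDK8 replicate 1 the call was lost for POLE2 (limma adjusted p = 0.0521), ZNF780B (limma adjusted p = 0.0687), DNAJB9 (limma adjusted p = 0.0502), SDF2L1 (limma adjusted p = 0.0872) and ASNS (limma adjusted p = 0.0717). The call of ASNS was also lost without hypoxic shCDK8 replicate 2 (limma adjusted p = 0.123), without normal growth shCDK8 replicate 3 (limma adjusted p = 0.0856) and without each of the 3 normal growth shControl arrays in turn.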

How the results depend on the processing

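With all arrays there were 1674 genes called between hypoxic and normal growth shCDK8 cells, 80 higher hypoxia list genes among them, 8801 shControl calls and 2118 differences of response. A fit of the 15 hypoxia and normal growth arrays had 916 calls and 978 differences, and a fit of the 5 shCDK8 arrays alone had 16 calls, 14 of them in the hypoxia lists. With array weights (estimated gene by gene) there were 5028 calls in shCDK8, 2899 in shControl and 426 differences. Leaving out single arrays gave 714 to 2372 calls in shCDK8 and 4549 to 12096 in shControl, 1092 to 6947 differences, 64 to 77 higher hypoxia list genes, and 67 (of 110) to 108 (of 144) higher genes among those induced in shControl (83 of 110 with all arrays). Leaving out both arrays that stood apart, an alternative chosen after seeing the data, gave 3777, 5064 and 1144. Scaling moved the balance of directions: 44.1% of the shControl calls were higher, and 58% with each array minus its median, where the median shControl change over all genes was 0.12, not 0.06. The cause of these shifts was not tested.

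The labels state no pairing of same-numbered replicates, and the main fit assumed none. The deviations of replicate 1 in hypoxia and in normal growth correlated at -0.53 over genes in shCDK8 and at 0.09 in shControl. These values cannot decide whether replicates were paired. Each rests on 1 deviation per condition, and in each line 1 of the arrays used stood apart. With the replicate block there were 37 calls in shCDK8, 22 of them higher hypoxia list genes, 3560 in shControl, 26 induced genes and 0 differences by limma (2916 at an unadjusted p under 0.05). The same 10 arrays without the block, added after seeing the data, gave 394, 5074 and 168.

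Signs turned for values near 0. The PDK1 difference was 0.001, and was -0.041 with each array minus its median, -0.051 after quantile normalization, -0.058 with array weights and -0.174 to 0.108 without single arrays or without both that stood apart. The BNIP3 difference was -0.023 with array weights and -0.0961 to 0.142 with the same arrays left out. The shCDK8 change of DUSP1 was 0.013 after quantile normalization and -0.108 to 0.0566 with the same arrays left out. That of SLC10A5 was 0.00094 after quantile normalization, 0.034 with the replicate block and -0.267 to 0.0671 with the same arrays left out. Over the named genes and these alternatives, 1343 responses in shCDK8 kept their direction and side of the threshold, 203 lost their call, 28 gained one and 7 turned. The same counts for the differences were 931, 123, 5 and 12.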

Other observations

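Of the 648 genes called higher in hypoxic shCDK8 cells, 24 were not called in shControl cells and had a called higher difference of response, and of the 1026 lower genes 26 were not called in shControl cells and had a called lower difference. The gene with the largest such change, chosen after its values were seen, was DPP4, a peptidase of the cell surface. It had 7.25 and 7.15 in hypoxic and 5.88, 6.32 and 6.07 in normal growth shCDK8 cells, against 8.49 and 9.02 in hypoxic and 8.65, 8.62 and 8.66 in normal growth shControl cells. The hypoxic shCDK8 arrays lay above every other array of the line and below the shControl arrays. The rise was 1.11 ± 0.15 (limma adjusted p = 1.54e-05) and the difference of the responses 1.005 ± 0.21 (limma adjusted p = 0.00236), which was 0.63 and not called with both arrays that stood apart left out (limma adjusted p = 0.0717).

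Of 6 tested genes of the Mediator kinase module, the shared CDK8 cluster left aside, 1 was called lower and 0 were higher. Of the 27 sterol and fatty acid genes 0 were called higher in hypoxic shCDK8 cells, although INSIG2, a sterol sensor partner that was counted with the HIF targets, rose.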
